A study of Mus musculus with 8 samples.

Results

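Glycogen synthesis and breakdown was followed through 9 genes of the 26874 genes and transcripts tested, in mouse neural stem cells kept at low or at atmospheric oxygen. The 9 were found by matching the array's accessions to a list of gene symbols. The matching reads no signal, but the list was chosen with earlier results of these data known. They are the glycogen synthase gene Gys1, the branching enzyme gene Gbe1 and the phosphorylase genes Pygb and Pygl. Also among them are Ppp1r3c, Ppp1r3d and Ppp1r3g, the genes of subunits that hold protein phosphatase 1 on glycogen. Ugp2 and Pgm2 were listed under sugar phosphate supply. Pgm2 is here the RefSeq gene of that name, not the gene of the classical phosphoglucomutase, which is RefSeq Pgm1. All 9 were well above background on all 8 arrays, so none was lost to the filter on dim probes.

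The cells were isolated from E13.5 (embryonic day) mice of strain OF-1 and grown without serum, per the labels. From the start they were divided between 21% oxygen (called normoxia here) and 5% oxygen (called hypoxia), both run in parallel, and taken for RNA after at least 10 days and 2 to 3 passages. The experiment was done 4 times with different donors, which gave 4 arrays per condition, and same-numbered arrays were treated as a pair. No genotype differed between the groups, and the labels do not say whether embryos were pooled. The RNA, with an integrity number above 7, carried the dye Cy3 on Agilent arrays read in 1 colour. Transcript levels alone were measured, with no assay of glycogen or of enzyme protein.

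Glycogen is a branched glucose polymer that cells build when glucose is at hand and draw on when energy runs short. Phosphoglucomutase turns glucose 6-phosphate into glucose 1-phosphate, UDP-glucose pyrophosphorylase activates it, glycogen synthase lengthens the chains and the branching enzyme adds branch points. Phosphorylase releases glucose 1-phosphate again without using ATP. Protein phosphatase 1, brought to the particle by its glycogen-binding subunits, switches the synthase on and phosphorylase off. In brain, most glycogen lies in astrocytes.

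The labelled cell type was checked against marker genes. All 10 neural stem cell markers, among them Nes, Sox2 and Pax6, were well above background on all 8 arrays, and none of them passed the test between oxygen levels. Their summed level ran from 143 to 243 times the array's 75th percentile in normoxia and from 163 to 298 in hypoxia. Markers of muscle and liver, which express glycogen genes strongly, lay near 0 on this scale, with sums of at most 0.212 and 0.0994. Astrocyte markers were present, with sums from 68.0 to 137 in normoxia and from 94.6 to 186 in hypoxia. Their sum, led by the brightest genes Aldoc and Aldh1l1, was higher in hypoxia in all 4 pairs. Aldoc and Aldh1l1, neither of which passed, had mean log2 levels of 5.85 and 4.54 in normoxia, and Fgfr3 3.15. Gfap, Aqp4, S100b, Slc1a2 and Ntsr2 were much dimmer, with means from -1.80 to -0.64 in normoxia and from -1.18 to 0.28 in hypoxia. The astrocyte sum therefore says little about these dimmer genes. Singly, Gfap and Aqp4 were higher in 3 of 4 pairs, S100b in 2 and the other kept ones in 4. Among the 8 of 9 astrocyte markers kept, 3 rose (Slc1a2, Ntsr2 and Fgfr3) and the median log2 change was 0.59. Meningeal fibroblast markers were low, with sums from 1.13 to 5.19 in normoxia and from 2.18 to 10.1 in hypoxia, and 4 of 6 rose while 1 fell. Oligodendrocyte lineage markers had sums from 64.4 to 104 and from 79.1 to 116, and of 7 kept Mbp and Cspg4 rose and Mobp fell. Of 5 endothelial and mural markers kept, Pdgfrb rose and Cldn5 and Tek fell, with sums from 1.11 to 4.08 and from 1.53 to 3.27. Tek was near the floor, well above background on 3 of 4 normoxia arrays and 1 of 4 hypoxia arrays. Pdgfrb was dim too, with mean log2 levels of -4.78 in normoxia and -3.24 in hypoxia. The sums came mostly from Kdr, which did not pass. None of the neuron or microglia markers passed. The part of these other cell types in the results below was not tested. In RNA from a whole culture, fewer cells of a type and less RNA per cell cannot be told apart. Each array held 62976 spots, of which 64.4% to 73.9% of the non-control ones were well above background. The 75th percentile ran from 1909 to 7352 intensity units, and no spot was saturated.

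At 5% oxygen, 6 of the 9 genes rose, none fell and 3 did not pass. Ppp1r3g rose furthest, by 10.2-fold, followed by Gbe1 (3.34-fold), Pygl (3.20-fold), Ppp1r3c (3.07-fold), Gys1 (1.80-fold) and Ppp1r3d (1.51-fold), each higher in hypoxia in 4 of 4 pairs. Pygb, Ugp2 and Pgm2 did not pass. A gene passed when its adjusted p was under 0.05 in limma's fit across all genes, with the pair as a block and Benjamini-Hochberg adjustment over all 26874. In that fit 5.54% of all genes and transcripts passed, with 4.25% rising and 1.29% falling. The median log2 change of the 9 genes was 0.85, against 0.03 over all genes, where the 5th and 95th percentiles were -0.47 and 0.71. By pair, the median of the 9 was 1.26, 0.84, 0.74 and 0.75, and that of all genes was 0.03, 0.17, -0.13 and 0.05. For 6 of the 9 the hypoxia and normoxia arrays did not overlap, as held for 4.81% of all genes. All 6 that passed moved the same way in every pair, as did 28.2% of all genes. These counts describe a list chosen with earlier results of these data known, and no test was run over the list.

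Without the pairing, none of the 9 passed in limma's fit (6 had an unadjusted p under 0.05, as did 8.03% of all genes), and 0.0893% of all genes rose. The adjusted p of the 6 rising genes in that unpaired fit ran from 0.0681 for Ppp1r3g to 0.370 for Ppp1r3d. Cultures at the same oxygen level spread widely, and the pairing removes the part of that spread that both arrays of a pair share. The p-values of the paired fit rest on how far the change varied between these 4 experiments. In limma each gene's variance is also drawn toward a value shared by all genes.

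**Figure D1:**
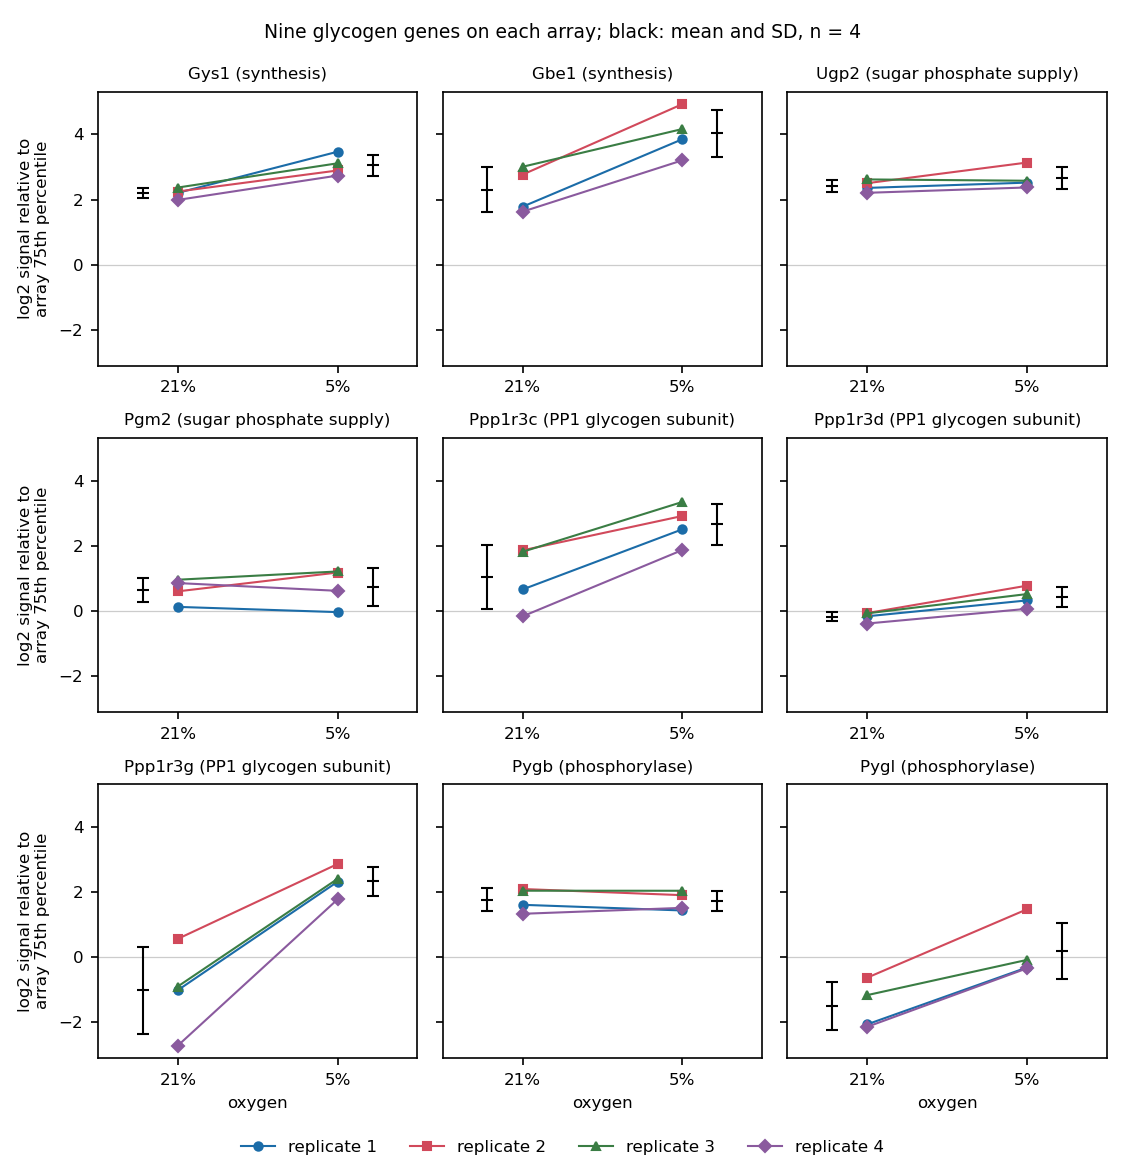
Level of each of the 9 genes (y axis, log2 signal relative to the array's 75th percentile) on the normoxia and hypoxia arrays, with lines joining the arrays of a pair. For the 6 rising genes all 4 lines go up, while those of Pygb, Ugp2 and Pgm2 go up in some pairs and down in others.

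RefSeq promoters were available for all 9 genes, and they were searched for 2 short motifs, ACGTG and GCGTG, on both strands. These letters form the core of the element that hypoxia-inducible factors bind, and the palindrome CACGTG counts on both strands. The window ran from 250 bases before to 50 bases after the annotated start. Either motif occurred in 43.8% of 32851 mouse promoters (ACGTG in 19.6%, GCGTG in 32.4%). Among the 9 genes, 7 held a match, namely 4 of the 6 that rose and all 3 that did not pass. Gys1 and Gbe1, which rose, held none. The background share counts promoters, whereas a gene counts here if any of its promoters holds a match. Of the rising genes of a wider glycogen list given below, Pgm1, Hk1, Hk2, Epm2a and Stbd1 held a match and Slc37a4 held none. Genes of that list that did not pass were not searched. The 250 bases before the start are shown for the gene that rose furthest (Ppp1r3g), for another rising phosphatase subunit with several matches (Ppp1r3c), for the phosphorylase pair that parted (Pygl and Pygb) and for a rising gene without a match (Gbe1). Each runs 5′ to 3′ along its gene, with matches in capitals.
Ppp1r3g promoter, GRCm38.p6 chr13:35967656-35967905, plus strand: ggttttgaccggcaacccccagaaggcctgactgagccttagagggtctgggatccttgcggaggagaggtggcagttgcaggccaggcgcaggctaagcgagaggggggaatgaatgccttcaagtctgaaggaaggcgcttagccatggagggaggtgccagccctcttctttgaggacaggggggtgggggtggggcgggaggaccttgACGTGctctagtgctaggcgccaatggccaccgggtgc
Ppp1r3c promoter, GRCm38.p6 chr19:36736605-36736854, minus strand: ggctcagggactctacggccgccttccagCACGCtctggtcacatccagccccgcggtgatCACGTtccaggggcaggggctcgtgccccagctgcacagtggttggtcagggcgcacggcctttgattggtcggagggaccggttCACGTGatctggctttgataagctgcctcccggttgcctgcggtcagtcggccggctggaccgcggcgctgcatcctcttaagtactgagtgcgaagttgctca
Pygl promoter, GRCm38.p6 chr12:70227684-70227933, minus strand: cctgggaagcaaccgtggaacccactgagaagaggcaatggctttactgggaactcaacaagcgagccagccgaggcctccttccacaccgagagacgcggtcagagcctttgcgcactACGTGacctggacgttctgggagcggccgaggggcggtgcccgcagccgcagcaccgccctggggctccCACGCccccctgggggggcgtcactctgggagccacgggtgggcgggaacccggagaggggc
Pygb promoter, GRCm38.p6 chr2:150786546-150786795, plus strand: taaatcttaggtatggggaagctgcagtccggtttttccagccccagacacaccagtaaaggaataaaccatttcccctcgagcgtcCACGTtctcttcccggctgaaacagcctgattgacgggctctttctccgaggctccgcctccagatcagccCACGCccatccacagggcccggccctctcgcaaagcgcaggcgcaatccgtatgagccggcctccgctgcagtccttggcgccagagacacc
Gbe1 promoter, GRCm38.p6 chr16:70313699-70313948, plus strand: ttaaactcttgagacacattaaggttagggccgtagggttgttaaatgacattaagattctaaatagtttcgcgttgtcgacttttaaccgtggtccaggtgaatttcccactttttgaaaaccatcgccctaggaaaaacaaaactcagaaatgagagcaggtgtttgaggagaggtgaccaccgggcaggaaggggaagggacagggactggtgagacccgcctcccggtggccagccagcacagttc
Ppp1r3g held 1 match, whose first base lies at -38 from the start. The 4 matches of Ppp1r3c lie at -221, -189, -104 and -103, the last 2 being the strands of 1 palindrome. Pygl held its matches at -131 and -62, and Pygb, whose level did not pass, held as many, at -163 and -92. Ugp2, which did not pass either, held 6 matches, the most of the 9, all in 1 of its 2 promoters. A match here is a run of letters and was not measured as a bound site.

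**Figure D2:**
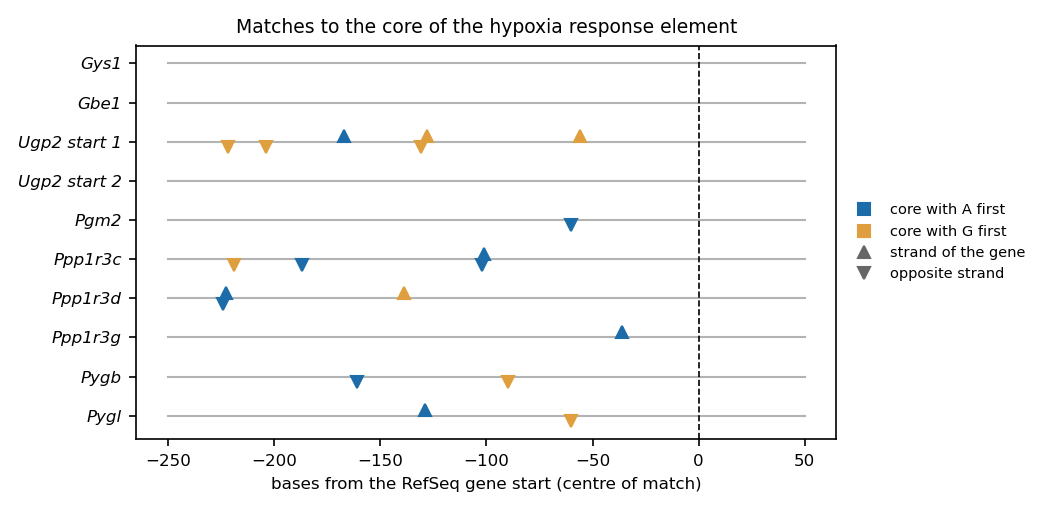
Centre of each match to ACGTG or GCGTG (x axis, bases from the annotated start) in the RefSeq promoters of the 9 genes, 1 promoter per line, with colour for the motif and the triangle's direction for the strand. Matches occur in 4 of the 6 rising genes and in all 3 that did not pass, and the lines of Gys1 and Gbe1 are empty.

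Gys1 encodes the glycogen synthase of tissues outside the liver, which adds glucose from UDP-glucose to the growing chain. Its log2 level was 2.21, 2.25, 2.37 and 1.99 in normoxia replicates 1 to 4 and 3.47, 2.89, 3.11 and 2.74 in hypoxia replicates 1 to 4. The lowest hypoxia array lay above the highest normoxia array, and replicate 1 at 5% oxygen was the highest of all. Among the hypoxia arrays, 44.6% of all genes were highest on replicate 1. The arrays of pair 1 were also the dimmest, with 75th percentiles of 2990 (normoxia) and 1909 (hypoxia) intensity units. The group means were 2.20 ± 0.16 and 3.05 ± 0.32 (SD, n = 4 per group). Gys1 rose by 0.85 on the log2 scale (SE 0.15, limma adjusted p = 0.0190, unpaired 0.165), with differences of 1.26, 0.65, 0.74 and 0.75 in pairs 1 to 4. Another probe for Gys1 gave 0.79 (SE 0.19) and narrowly missed the threshold when adjusted over all probes (limma adjusted p = 0.0572). The Gys1 call was lost without pair 1 (0.71, limma adjusted p = 0.102), without pair 3 (0.89, 0.0892) and with no filter on dim probes (0.0796).

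Gbe1 encodes the branching enzyme, which moves short stretches of a chain onto new branch points. It lay at 1.78, 2.77, 3.01 and 1.63 in normoxia and at 3.85, 4.93, 4.17 and 3.21 in hypoxia. Every hypoxia array was above every normoxia array, although the cultures differed by more than 1 log2 unit within each condition. The mean went from 2.30 ± 0.69 to 4.04 ± 0.72 (SD, n = 4 per group), a rise of 1.74 (SE 0.19, limma adjusted p = 0.00330, unpaired 0.168). The pairs gave 2.07, 2.16, 1.16 and 1.58. Gbe1 passed in all 15 alternatives of the paired fit, with changes from 1.60 to 1.94. Its promoter, printed above, held neither motif.

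Of the subunits that bring protein phosphatase 1 to glycogen, Ppp1r3c, Ppp1r3d and Ppp1r3g rose, by 1.51-fold to 10.2-fold, while Ppp1r3b, Ppp1r3e and Ppp1r3f of the wider list did not pass. Ppp1r3g, a subunit studied mostly in liver, was at -1.02, 0.56, -0.90 and -2.72 in normoxia and at 2.31, 2.86, 2.40 and 1.77 in hypoxia. The normoxia arrays spread over more than 3 log2 units and the hypoxia arrays over about 1, with no overlap. Its mean rose from -1.02 ± 1.34 to 2.34 ± 0.45 (SD, n = 4 per group), by 3.35 on the log2 scale (95% interval 2.66 to 4.05, limma adjusted p = 0.00172, unpaired 0.0681). The rise of Ppp1r3g was smallest in pair 2 (2.30), intermediate in pairs 1 and 3 (3.33 and 3.30) and largest in pair 4 (4.49), where the normoxia level was lowest. It passed in all 15 paired alternatives, from 7.87-fold to 13.1-fold.

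Ppp1r3c encodes the subunit known as protein targeting to glycogen, which also binds glycogen synthase. Normoxia arrays gave 0.66, 1.86, 1.82 and -0.17, and hypoxia arrays gave 2.50, 2.91, 3.34 and 1.87. The highest normoxia array (1.86) and the lowest hypoxia array (1.87) almost met, so the separation shows mainly within pairs, at 1.85, 1.05, 1.53 and 2.04. The means were 1.04 ± 0.98 and 2.66 ± 0.63 (SD, n = 4 per group), and Ppp1r3c rose by 1.62 (SE 0.18, limma adjusted p = 0.00358, unpaired 0.276). All 15 paired alternatives kept its call, with changes from 1.48 to 1.80.

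Ppp1r3d, a further glycogen-targeting subunit, showed the smallest of the rises that passed. It was at -0.16, -0.064, -0.073 and -0.39 in normoxia and at 0.32, 0.78, 0.52 and 0.066 in hypoxia. All normoxia arrays were below 0 and all hypoxia arrays above it, with pair differences of 0.49, 0.84, 0.59 and 0.45. The mean moved from -0.17 ± 0.15 to 0.42 ± 0.30 (SD, n = 4 per group), a rise of 0.59 (SE 0.14, limma adjusted p = 0.0490, unpaired 0.370). The Ppp1r3d call stood at the threshold and was lost without any 1 pair (limma adjusted p from 0.0938 to 0.167). It was also lost under median scaling (0.0547), in the authors' deposited value table (0.0501) and with no filter on dim probes (0.144).

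The 2 phosphorylase genes parted. Pygl, named for the liver form of the enzyme, was at -2.06, -0.63, -1.16 and -2.14 in normoxia and at -0.32, 1.47, -0.084 and -0.34 in hypoxia. No hypoxia array fell within the normoxia range, and hypoxia replicate 2 stood well above the others of its group. Pygl rose from -1.50 ± 0.73 to 0.18 ± 0.87 (SD, n = 4 per group), by 1.68 (SE 0.18, limma adjusted p = 0.00329, unpaired 0.245), with 1.74, 2.10, 1.08 and 1.80 in the pairs. Without pair 2 the rise was 1.54, and all 15 paired alternatives kept the call.

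Pygb, named for the brain form, gave 1.61, 2.09, 2.04 and 1.33 in normoxia against 1.43, 1.90, 2.04 and 1.51 in hypoxia. The groups overlapped almost entirely, with a lower hypoxia level in pairs 1 and 2 (-0.17 and -0.19), nearly equal levels in pair 3 (-0.0014) and a higher one in pair 4 (0.18). The means were 1.77 ± 0.36 and 1.72 ± 0.29 (SD, n = 4 per group), a log2 change of -0.045 (95% interval -0.36 to 0.27, limma adjusted p = 0.903). That interval spans 0 and leaves out a change of the size seen for Pygl. The promoters of Pygl and Pygb printed above hold 2 matches each.

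Ugp2 encodes UDP-glucose pyrophosphorylase, which makes the activated glucose that glycogen synthase uses. Its level was 2.36, 2.51, 2.62 and 2.21 in normoxia and 2.52, 3.14, 2.58 and 2.37 in hypoxia. Only hypoxia replicate 2 lay above the normoxia range. The means of 2.42 ± 0.18 and 2.65 ± 0.33 (SD, n = 4 per group) differed by 0.23 (95% interval -0.13 to 0.59, limma adjusted p = 0.474), with 0.63 in pair 2 and from -0.040 to 0.16 in the others. Another probe for Ugp2 gave 0.18 (SE 0.15).

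Pgm2 here is the RefSeq gene of that name on chromosome 5, which carries Pgm1 among its synonyms. RefSeq Pgm1 on chromosome 4, the gene of the classical phosphoglucomutase, carries Pgm2 among its own, so results for these genes depend on which naming is used. The result for Pgm2 therefore does not stand for the step of the classical phosphoglucomutase. For Pgm2, normoxia gave 0.13, 0.60, 0.96 and 0.86, and hypoxia -0.035, 1.18, 1.21 and 0.62. Both groups spread more widely than they differed, and the pairs moved up in 2 cases (0.58 and 0.25) and down in 2 (-0.16 and -0.24). The log2 change was 0.11 (95% interval -0.29 to 0.51, limma adjusted p = 0.796), with means of 0.64 ± 0.37 in normoxia and 0.74 ± 0.59 in hypoxia (SD, n = 4 per group). RefSeq Pgm1, in contrast, rose by 1.15 (SE 0.20, limma adjusted p = 0.0160), its means being 4.74 ± 0.44 and 5.90 ± 0.43 (SD, n = 4 per group), and was higher in 4 of 4 pairs. The Pgm1 call was lost without pair 3 (adjusted p = 0.0777) and with no filter on dim probes (0.0741).

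**Figure D3:**
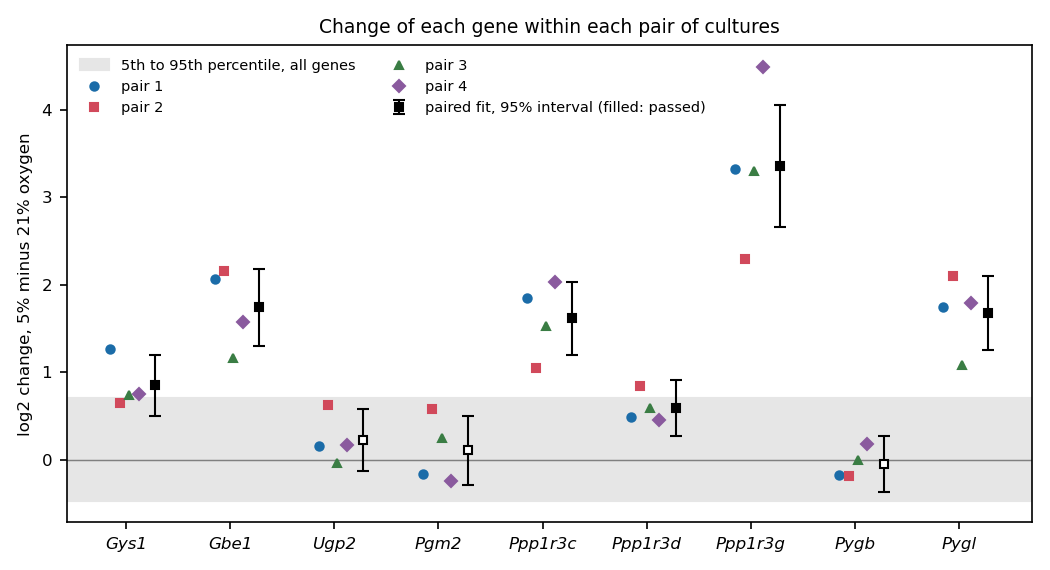
Log2 change from 21% to 5% oxygen (y axis) of the 9 genes in each of the 4 pairs (coloured symbols) and in the paired fit (squares with 95% intervals, filled where the change passed), over a grey band from the 5th to the 95th percentile of all genes. Intervals of Pygb, Ugp2 and Pgm2 cross 0, and that of Ppp1r3g runs from 2.66 to 4.05.

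Differences between related genes were set side by side within the pairs, in 5 comparisons chosen after the values were seen. The rise of Pygl exceeded the change of Pygb by 1.73 (SE 0.25, from 1.08 to 2.29 over pairs). Ppp1r3g exceeded Ppp1r3c by 1.74 (SE 0.26), and Ppp1r3c exceeded Ppp1r3d by 1.02 (SE 0.30, lowest in pair 2 at 0.21). Gbe1 rose by 0.89 more than Gys1 (SE 0.23), and Pgm1 by 1.04 more than Pgm2 (SE 0.40). The first gene of each comparison changed more in 4 of 4 pairs. The exact two-sided sign-flip permutation test gave p = 0.125 for each, also after adjustment over the 5, which is the smallest p that 4 pairs allow.

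Within a condition, most of the 9 genes were lowest in the same culture. In normoxia, 8 of the 9 were lowest in replicate 4, as were 29.2% of all genes, and in hypoxia 7 of the 9 were lowest there, against 23.1% of all genes. Pgm2 was the exception in both conditions, with its lowest level in replicate 1, as was Pygb in hypoxia. Replicate 4 also had the lowest astrocyte marker sum of each condition (68.0 and 94.6) and the highest meningeal fibroblast sum (5.19 and 10.1). The neural stem cell sum was lowest there in normoxia (143) but not in hypoxia. A link between these sums and the 9 genes was not tested. The highest normoxia array was replicate 2 for 5 genes and replicate 3 for 4, as for 19.7% and 18.3% of all genes. In hypoxia it was replicate 2 for 5, 3 for 3 and 1 for Gys1 alone, as for 26.0%, 11.4% and 44.6% of all genes. Over the 8 arrays, which include the shift between conditions, Pearson's r between Gbe1 and Ppp1r3d was 0.97. For Gbe1 it was 0.96 with Pygl and 0.94 with Ppp1r3c, and between Gys1 and Ppp1r3g it was 0.87. With Gys1, Pygb had 0.01 and Pgm2 -0.084. These values describe 8 arrays that share pairs and a treatment.

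Among 16032 RefSeq genes outside the 9, the 5 whose level was most like that of Gys1, by Pearson's r over the 8 arrays, were Gnb3 (r = 0.989), Galk1 (0.988), Gm13315 (0.978), Atp7b (0.975) and Pfkl (0.971). Galk1, the galactokinase gene, rose by 1.27 on the log2 scale, the phosphofructokinase gene Pfkl by 1.54, the copper transporter gene Atp7b by 0.90 and Gm13315 by 1.10 (limma adjusted p = 0.00858, 0.0137, 0.0119 and 0.0147). Gnb3, a G protein subunit gene, was at 0.53 and did not pass (0.0825). These 5 were picked for their likeness to Gys1 on the same 8 arrays, where the groups of Gys1 did not overlap. A higher level in hypoxia thus follows from the choice, and their adjusted p-values are no separate test of a link with Gys1.

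Beyond the 9, a wider list of 34 glycogen genes was examined, of which 33 had a probe. Gys2, Ppp1r3a and G6pc2, the first 2 known from liver and muscle, were not well above background on enough arrays to be kept. Of the 30 kept, 6 rose (4.25% of all genes did), none fell and 24 did not pass, and the median log2 change was 0.16. The groups did not overlap for 6 of the 30, as held for 4.81% of all genes. Without the pairing none passed in limma's fit, with 8 of the 30 at an unadjusted p under 0.05, against 8.03% of all genes. In the paired fit 10 of the 30 were, against 19.4% of all genes.

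Hexokinases make the glucose 6-phosphate that enters the pathway, and both that were listed rose. Hk2 went from 2.34 ± 0.44 to 3.57 ± 0.47 (SD, n = 4 per group), a rise of 1.23 (SE 0.15, limma adjusted p = 0.00471), and passed in all 15 paired alternatives. Hk1 rose by 0.92 (SE 0.15, adjusted p = 0.0134), and its call was lost without pair 1 (0.0735), without pair 3 (0.0872) and with no filter (0.0627). Gyg, the primer protein of glycogen, and Pgm2l1, which makes glucose 1,6-bisphosphate, did not pass. Pgm2l1 was at -0.35 and lower in 4 of 4 pairs.

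In the group of glycogen quality control and lysosomal breakdown, 2 of 4 rose. Stbd1, which binds glycogen and brings it toward the lysosome, was at -1.47, -1.07, -1.66 and -1.16 in normoxia and at 0.16, 1.66, 0.32 and -0.0021 in hypoxia. All hypoxia arrays exceeded all normoxia arrays, with replicate 2 again the highest of its group. Stbd1 rose by 1.87 (3.66-fold, SE 0.24, limma adjusted p = 0.00526), and its call was lost without pair 3 (0.0643). Epm2a, the gene of the glycogen phosphatase laforin, rose by 1.31 (SE 0.19, adjusted p = 0.00858), but it was dim, with 3 of the 4 normoxia arrays well above background. Its call was lost without pair 3 (0.0696), and its change was 0.78 in the lowest alternative. The laforin partner gene Nhlrc1 and the lysosomal glucosidase gene Gaa (0.33, adjusted p = 0.204) did not pass.

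The 5 subunit genes of phosphorylase kinase, which switches phosphorylase on, changed by between -0.11 and 0.34 and did not pass. Phkg1, which gave the 0.34, was dim, with mean log2 levels of -5.23 in normoxia and -4.89 in hypoxia. The muscle phosphorylase gene Pygm, at 0.28, did not pass either. Ppp1r3b, a subunit gene related to those that rose, was at 0.89 (SE 0.28, adjusted p = 0.118) and higher in 3 of 4 pairs. Ppp1r3b passed with normexp background correction (0.0347) and with array weights (0.0450), and its change was 0.56 without pair 3. Of the other listed subunit genes, Ppp1r3f was at 0.13 and Ppp1r3e, lower in 4 of 4 pairs, at -0.25, and neither passed. Ppp1r3e was dim, with mean log2 levels of -4.60 in normoxia and -4.86 in hypoxia. The 3 catalytic subunit genes of protein phosphatase 1 changed by 0.04 to 0.11 and the glycogen synthase kinase genes Gsk3a and Gsk3b by -0.086 and 0.049, and none of these 5 passed.

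At the exit of the pathway, Slc37a4, the transporter that carries glucose 6-phosphate into the endoplasmic reticulum, rose by 0.79 (SE 0.16, limma adjusted p = 0.0281). Its groups overlapped, and the Slc37a4 call was lost without pair 1, 2 or 4 (adjusted p = 0.137, 0.0911 and 0.0714) and with no filter (0.103). The glucose 6-phosphatase genes G6pc and G6pc3 did not pass, and G6pc was dim, with mean log2 levels of -5.71 in normoxia and -5.81 in hypoxia. Ugdh, Uggt1 and Ugcg, which use UDP-glucose for other ends, changed by between -0.067 and 0.28 and did not pass either.

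**Figure D4:**
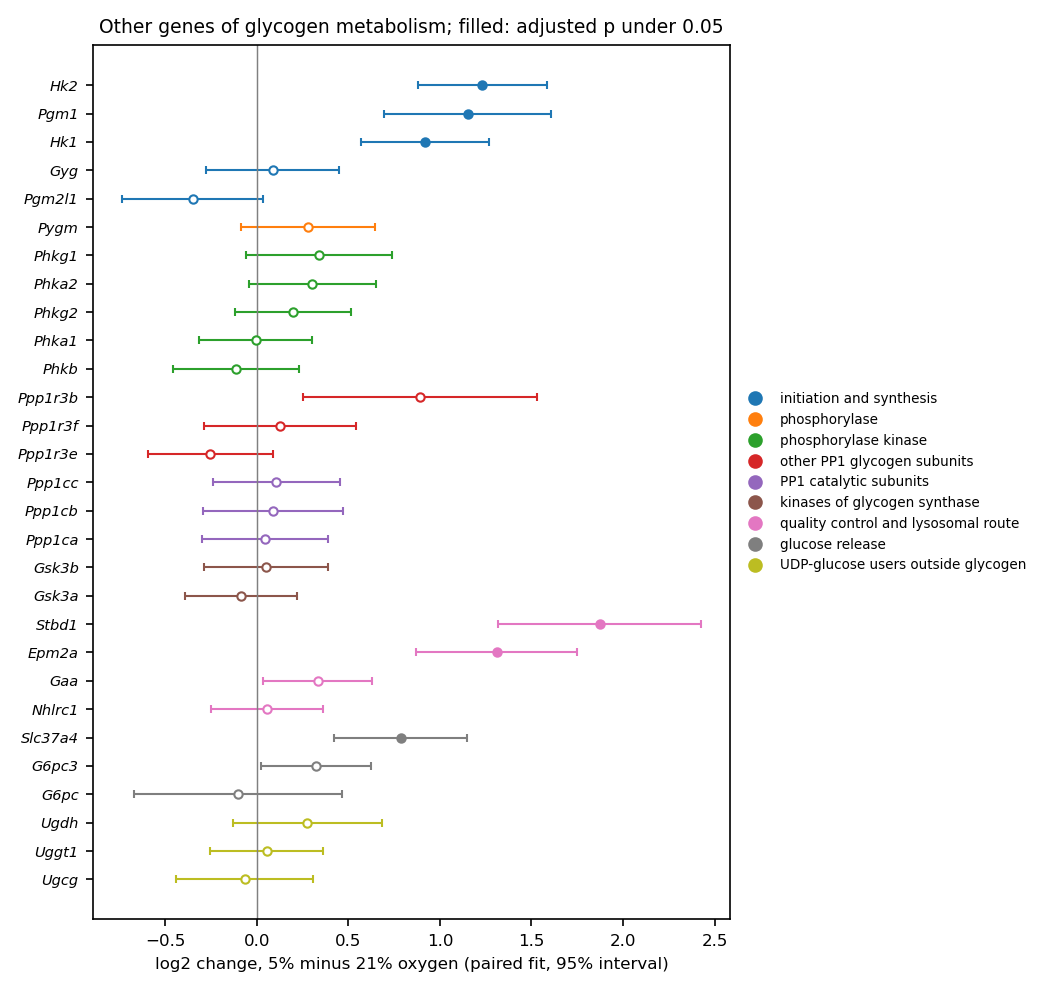
Log2 change from 21% to 5% oxygen (x axis, with 95% intervals from the paired fit) of the kept genes of the wider list, 1 left out, coloured by role, with filled symbols for those that passed. The 6 filled symbols lie between 0.79 and 1.87, and none belongs to the phosphorylase kinase, catalytic subunit or UDP-glucose groups.

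**Figure D5:**
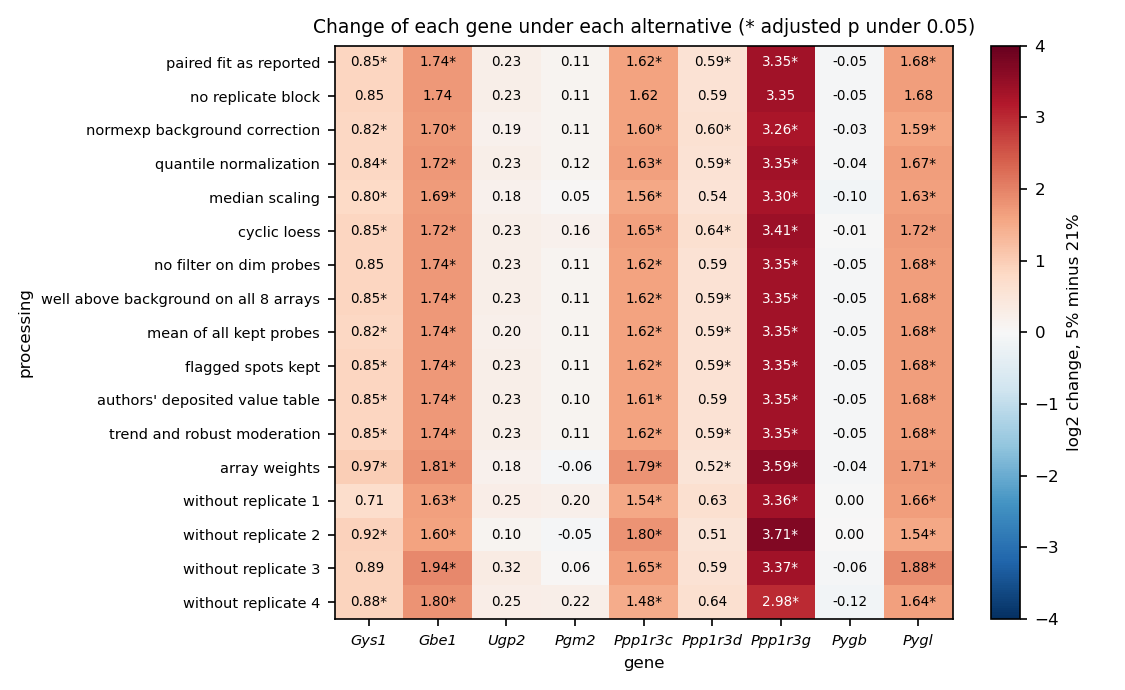
Log2 change of each of the 9 genes (columns) in the paired fit as reported, in the unpaired fit and under each other paired alternative (lines of the grid), with an asterisk where it passed and colour for the size of the change. Gbe1, Ppp1r3c, Ppp1r3g and Pygl are marked in all paired alternatives, Gys1 and Ppp1r3d in some, and no gene is marked in the unpaired fit.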

How the data were processed

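RNA of 8 neural stem cell cultures was measured on 1-colour arrays, all on 1 slide, so no slide block could be fitted. The submitters' processing notes name Agilent Feature Extraction 10.7.3.1 as the source of the deposited intensity values, whose background had been subtracted, per the file headers. A further table, deposited by the authors as log2 values, matches these signals after the array's 75th percentile and the probe's median are taken off, within 0.01 for 99.78% to 99.81% of probes, with column medians from -0.12 to 0.25, and served as an alternative.

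The values used are log2 of that signal, scaled to the 75th percentile of its array. Control and outlier spots were left out and spots of a probe averaged. A probe stayed in if 3 or more of the 4 arrays of either group had it well above background (37669 of 55681), accessions were named through RefSeq (GRCm38.p6), and each gene was read from its brightest probe on average. Probe positions are not given, since the array's design used another build. limma 3.58.1 in R 4.3.3 compared the groups with the replicate number as a block. The code of this fit was checked on simulated data with known changes, which does not vouch for the calls on these arrays. Per the series' design text, each replicate number marks an experiment with its own donors. Deviations from the group means correlated at 0.76, 0.51, 0.38 and 0.66 within pairs 1 to 4. Between arrays of different number they ran from -0.42 to 0.31. The highest, normoxia 2 with hypoxia 3, was close to that of pair 3. Promoter sequences came from RefSeq.

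The members and lists were chosen with earlier results of these data known. Named were all 9 genes, the wider list's genes that passed or else the 3 with the smallest p, and the 5 genes most like Gys1. Other genes of the list and the related-gene comparisons were named after their values were seen. A gene of the wider list that the rule names is not reported here. Alternatives covered the block, background correction, scaling, filter, gene summary, spot flags, source of values, moderation, array weights and left-out arrays or pairs.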

Additional observations from a re-analysis of the deposited data

Results flagged for a closer look

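Pygl on hypoxia replicate 2 lay at 1.47, apart from the other hypoxia arrays at -0.34 to -0.084. Its gap to the nearest of them was 0.858 of the group's range, above Dixon's 95% critical value for 4 samples. Among 36 groups of 4 arrays looked at in this way it was the only such value. Chance gives about 1 in 20 groups, so 1 among 36 is not unusual.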

How the results depend on the processing

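With no replicate block, 24 genes in all, 0 of the 9 and 0 of the wider list passed, against 1488, 6 and 6 in the paired fit. With no filter on dim probes the counts were 450, 4 and 3. Moderation with trend and robust settings gave 2302 genes and array weights 2456. Leaving out a pair gave 389 to 1449 genes, 4 to 5 of the 9 and 2 to 5 of the wider list. Leaving out 1 array without the block gave 0 to 57 genes, 0 to 1 of the 9 (Ppp1r3g without normoxia replicate 2) and 0 of the wider list. Under the other alternatives 5 to 6 of the 9 passed. The median change of the 9 ran from 0.71 to 0.97 over all alternatives.

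Changes near 0 turned sign in some settings. Pgm2 was at -0.058 with array weights, from -0.048 to 0.22 without 1 pair and from -0.062 to 0.37 without 1 array. Pygb ran from -0.12 to 0.0024 without 1 pair and from -0.19 to 0.063 without 1 array. The cause was not tested. Of 431 comparisons for 18 genes, 284 kept direction and side of the threshold. Epm2a had no value with a filter on all 8 arrays. The number of arrays limits the precision.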
